A study of Mus musculus with 6 samples.

Results

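The genes of vascular endothelial growth factor (VEGF) signalling described here are 4 ligands (Vegfa, Vegfb, Vegfc and Pgf), 3 receptor tyrosine kinases (Kdr, Flt1 and Flt4), the neuropilin co-receptors Nrp1 and Nrp2, and Esm1, a secreted proteoglycan of endothelial cells. They were chosen by name: every Affymetrix probe set (a group of short probes summarised to 1 value) whose platform annotation names only 1 of them was taken. This gave 23 of the 45037 probe sets that are not controls, for all 10 genes of the 18193 measured. Total RNA of sorted mouse embryo cells at embryonic day 9 was measured on 6 arrays, 3 per group. The cells were positive for yellow fluorescent protein (YFP), which marks the Isl1-cre domain of precardiac mesoderm. Mutant cells came from embryos with Isl1-cre, Rosa-YFP and Beta-catenin (loxP ex3), in which Cre stabilises β-catenin, the effector of canonical Wnt signalling. The labels call the other group wild type and give no further alleles for it, although its cells were sorted for YFP too. Recombination reaches whatever cells have expressed the Cre, and the number of embryos behind an array is not given. The p-values therefore reflect only how far the 3 arrays of a group lie apart, which may be technical.

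The deposited values are log2 levels, and differences below are mutant minus wild type on that scale, so that a difference of 1 is a doubling. Values of 1 group are given in the order of replicates 1, 2 and 3. Isl1 stood at 9.24, 9.36 and 9.77 in wild type against 8.72, 8.61 and 7.49 in the mutant, a difference of −1.18 that did not pass (adjusted p = 0.269, limma). Of 15 measured heart progenitor genes all but Nkx2-5 lay above background, a level of 4.85 set from bacterial control probe sets, in at least 1 group. Ctnnb1, the gene of β-catenin, read between 12.93 and 13.00 on all 6 arrays, and its probe set is not known here to cover exon 3. The mean level of 4 Y-linked genes was 9.08, 3.33 and 3.43 in wild type against 8.09, 9.12 and 8.33 in the mutant. It was thus below background on wild-type arrays 2 and 3 and above it on every mutant array. The signal of male embryos was therefore not balanced between the groups. The part of this level in the differences below was not tested beyond the fit that holds it as a covariate. In that fit the slope rests mainly on wild-type array 1 against wild-type arrays 2 and 3. Values under this covariate therefore cannot tell the Y-linked level apart from anything else particular to wild-type array 1.

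VEGF ligands are secreted by tissue that needs vessels and act on receptors of endothelial cells, the cells that line vessels and the inner heart wall. KDR carries most of the signal that makes endothelial cells divide and sprout, FLT1 binds VEGFA tightly with little signalling and is also made in a soluble form that traps it, and FLT4 answers VEGFC in early vessels and lymphatics. Neuropilins hold ligand next to these receptors and also bind semaphorins in nerve and neural crest. Vegfa is a textbook target of the transcription factors that respond to low oxygen. Esm1, also called endocan, is made by the tip cells that lead a sprout and is known to be induced by VEGFA.

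Esm1 was the only one of the 10 genes that passed the test over all genes, and it stood higher in the mutant cells. Flt1 showed the next largest difference, at 1.66 (3.15-fold), and did not pass. In the fit per gene (limma, Benjamini-Hochberg over all 18193 genes, threshold 0.05), 1 of the 10 members was called higher, against 0.066% of all genes, and 0 lower, against 0.0% (0 genes, with 880 at an unadjusted p under 0.05 in that direction). Values were higher in the mutant for 8 members and lower for Vegfb and Pgf, with a median difference of 0.48, against −0.03 over all genes. Under the Y-linked covariate the members' median was 0.22, and those higher with an unadjusted p under 0.05 numbered 2 in place of 5. Of all genes, 5.39% were higher with such a p under that covariate and 6.76% without it. The groups did not overlap, with every mutant array above every wild-type array, for 2 members, Esm1 and Flt1, against 8.64% of all genes. No member had every mutant array below every wild-type array, which 9.18% of all genes did.

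Probe set by probe set, 21 of the 23 differences were above 0, with a median of 0.50 against −0.03 over all probe sets. All mutant arrays lay above all wild-type arrays for 10 of the 23, against 8.01% of all probe sets. These 10 belong to 6 genes: 3 to Flt1, 2 each to Vegfc and Nrp1, and 1 each to Vegfa, Nrp2 and Esm1. Probe sets of the same gene are not independent, and at the gene level 2 of the 10 members had no overlap. With limma and adjustment over all 45037 probe sets, 0 members were called, as 0.0% of all probe sets were called higher and 0.0% lower (2748 higher and 2098 lower before adjustment, with a p under 0.05). Before adjustment, 13 member probe sets were higher with a p under 0.05 and 0 lower, against 6.1% of all probe sets higher. That count was 8 under the Y-linked covariate, and it was 7 when wild-type replicate 3 or mutant replicate 3 was left out and 6 for mutant replicate 2.

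**Figure D1:**
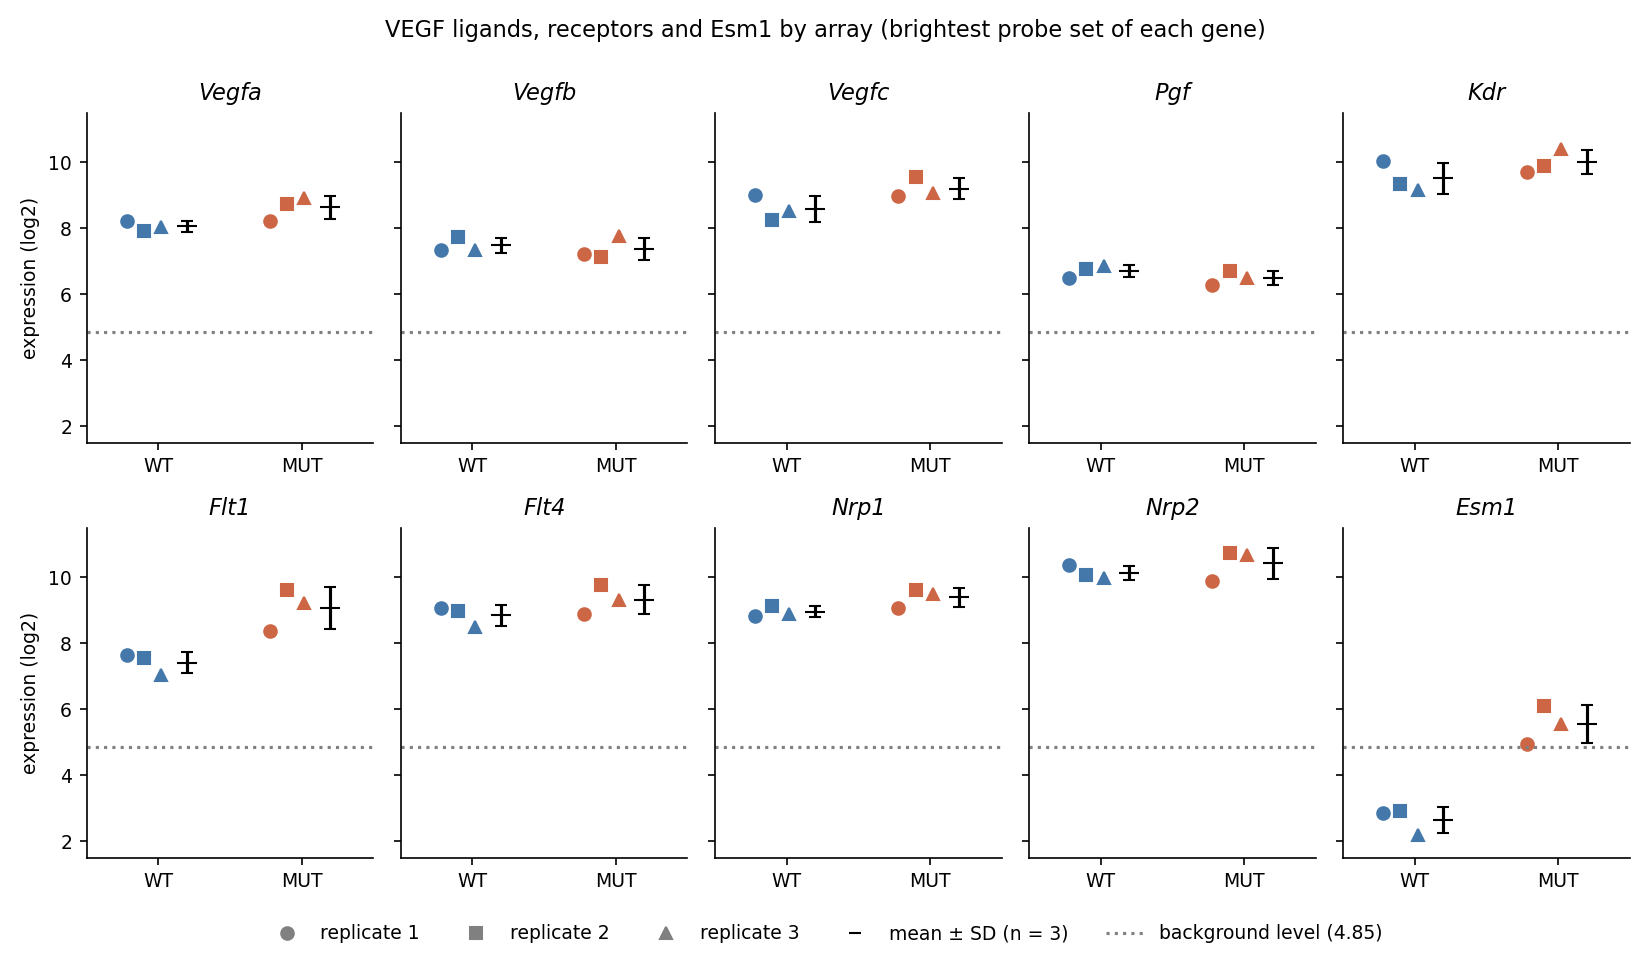
Expression (log2) of the 10 genes, each through its brightest probe set, on 3 wild-type (blue) and 3 mutant (orange) arrays, with the mean and SD beside them and the background level of 4.85 dotted. Esm1 lies below background on all wild-type arrays and at 4.95 to 6.11 on the mutant arrays; Flt1 is the other gene with no overlap between the groups.

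Esm1 crossed from below background to just above it. Its 1 probe set read 2.86, 2.90 and 2.19 in wild type against 4.95, 6.11 and 5.55 in the mutant. All wild-type values were thus under the background level of 4.85, mutant array 1 was barely over it, and the groups were far apart. The means were 2.65 ± 0.40 and 5.54 ± 0.58 (SD, n = 3), a fitted difference of 2.89 (SE 0.32, 95% interval 2.15 to 3.63, adjusted p = 0.0489 in limma over all genes; higher on 3 of 3 mutant arrays). Because the wild-type level lies under background, the fold has only a lower bound: set against 4.85, the mutant cells had at least 1.62-fold more Esm1 signal. The adjusted p was 0.0839 over all probe sets, 0.253 with the Y-linked covariate, 0.135, 0.153 and 0.162 without wild-type replicates 1, 2 and 3, 0.152 and 0.183 without mutant replicates 2 and 3, and 0.0163 without mutant replicate 1. The difference itself ran from 2.60 to 3.18 over the alternatives.

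The promoters of Esm1, Flt1 and Kdr are shown because the first is the member that passed and the others are the receptors with the largest and a smaller difference. The sequences are the 250 bases before the annotated start, read 5′ to 3′ on the gene's strand, from RefSeq (build GRCm38.p6). Capitals mark matches, on either strand, to ACGTG or GCGTG (core letters of hypoxia response elements), to CCGGAA or AGGAAG (letters bound by ETS factors, which include the endothelial regulators ERG and FLI1), or to CTTTGAT, or CTTTGTT, or CTTTGAA (letters bound by the TCF/LEF partners of β-catenin).
Esm1, chr13:113209409-113209658, plus strand: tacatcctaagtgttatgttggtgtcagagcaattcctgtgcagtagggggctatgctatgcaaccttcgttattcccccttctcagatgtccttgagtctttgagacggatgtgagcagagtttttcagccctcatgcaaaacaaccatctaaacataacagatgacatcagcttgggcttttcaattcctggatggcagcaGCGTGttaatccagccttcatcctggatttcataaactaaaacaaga
Flt1, chr5:147726012-147726261, minus strand: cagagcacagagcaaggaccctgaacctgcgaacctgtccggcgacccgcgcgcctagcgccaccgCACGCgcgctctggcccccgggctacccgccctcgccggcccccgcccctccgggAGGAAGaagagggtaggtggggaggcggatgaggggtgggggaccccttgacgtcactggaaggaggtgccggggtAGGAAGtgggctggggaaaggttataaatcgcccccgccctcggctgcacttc
Kdr, chr5:75978456-75978705, minus strand: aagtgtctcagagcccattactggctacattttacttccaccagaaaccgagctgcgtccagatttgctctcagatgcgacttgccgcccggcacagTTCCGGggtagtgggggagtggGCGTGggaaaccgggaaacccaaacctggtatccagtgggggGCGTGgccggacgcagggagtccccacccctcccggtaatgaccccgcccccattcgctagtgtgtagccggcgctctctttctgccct
The Esm1 window holds 1 match, GCGTG from 47 to 43 bases before the start. The Flt1 window holds GCGTG on the opposite strand, from 184 to 180 bases before the start, and AGGAAG from 129 to 124 and from 53 to 48. In the Kdr window GCGTG begins 131 and 89 bases before the start, and CCGGAA lies on the opposite strand from 153 to 148. Over the 12 windows of the 10 members (Vegfa and Pgf have 2 starts each), 8 hold a hypoxia element core, against 38.6% of all 32851 windows of this length. For ETS letters it is 3 of the 12 windows against 38.2%, and for TCF/LEF letters 1, that of Nrp2, against 12%. Of the Vegfa windows, chr17:46032378-46032627 holds none of these letters and chr17:46025164-46025413 holds ACGTG and GCGTG. Vegfa is on the minus strand, so the window with matches lies downstream of the other start, within the gene as read from there. Whether this window works as a promoter was not tested. It is counted among the 8. Matches of such short letters are a description of the sequence and not evidence of binding.

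Among the ligands, Vegfa and Vegfc stood higher on average and Vegfb and Pgf did not, and no ligand passed. Vegfa, the main ligand of KDR, has 2 probe sets that differ. The one that stands for the gene (1451959_a_at) read 8.23, 7.91 and 8.05 in wild type against 8.23, 8.73 and 8.92 in the mutant. Mutant array 1 was level with wild-type array 1 there, and the other 2 mutant arrays were above all wild-type arrays. The difference was 0.56 (SE 0.20, 95% interval 0.10 to 1.02, adjusted p = 0.363), with a range on this probe set from 0.40 under the Y-linked covariate to 0.76. The other Vegfa probe set (1420909_at) read 7.53, 7.34 and 7.5 against 8.02, 8.93 and 8.59, so its groups did not overlap. Its difference was 1.05 (SE 0.23), with an adjusted p of 0.248 over all probe sets. By either probe set, mutant array 1 had the lowest of the mutant values.

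Vegfc, the ligand of FLT4, read 9.01, 8.25 and 8.51 in wild type and 8.98, 9.56 and 9.07 in mutant cells on its brightest probe set, where mutant array 1 fell inside the wild-type range. The difference was 0.62 (SE 0.24, adjusted p = 0.393), and the other 2 probe sets gave 0.32 and 0.50 with no overlap. On the brightest probe set it was 0.22 under the Y-linked covariate and 0.83 without wild-type replicate 1, the ends of its range over the alternatives, and under that covariate the others gave 0.18 and 0.23. The dimmer of these (1440739_at) averaged 4.58 in wild type, under background, and 5.08 in mutant cells. Vegfb, a ligand of FLT1, read 7.35, 7.74 and 7.34 against 7.22, 7.13 and 7.75. Its difference of −0.11 (SE 0.20, adjusted p = 0.853) has no settled sign: it was 0.02 with the Y-linked covariate or without wild-type replicate 2, and 0.00 when mutant replicate 2 was left out. Pgf (placental growth factor), which also binds FLT1, read 6.49, 6.76 and 6.85 against 6.28, 6.69 and 6.5, a difference of −0.21 (95% interval −0.59 to 0.17, adjusted p = 0.633) that was −0.06 under the Y-linked covariate. For Vegfb and for Pgf the groups overlapped. The 95% interval of Vegfb ran from −0.59 to 0.36, so a doubling lies outside both intervals.

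**Figure D2:**
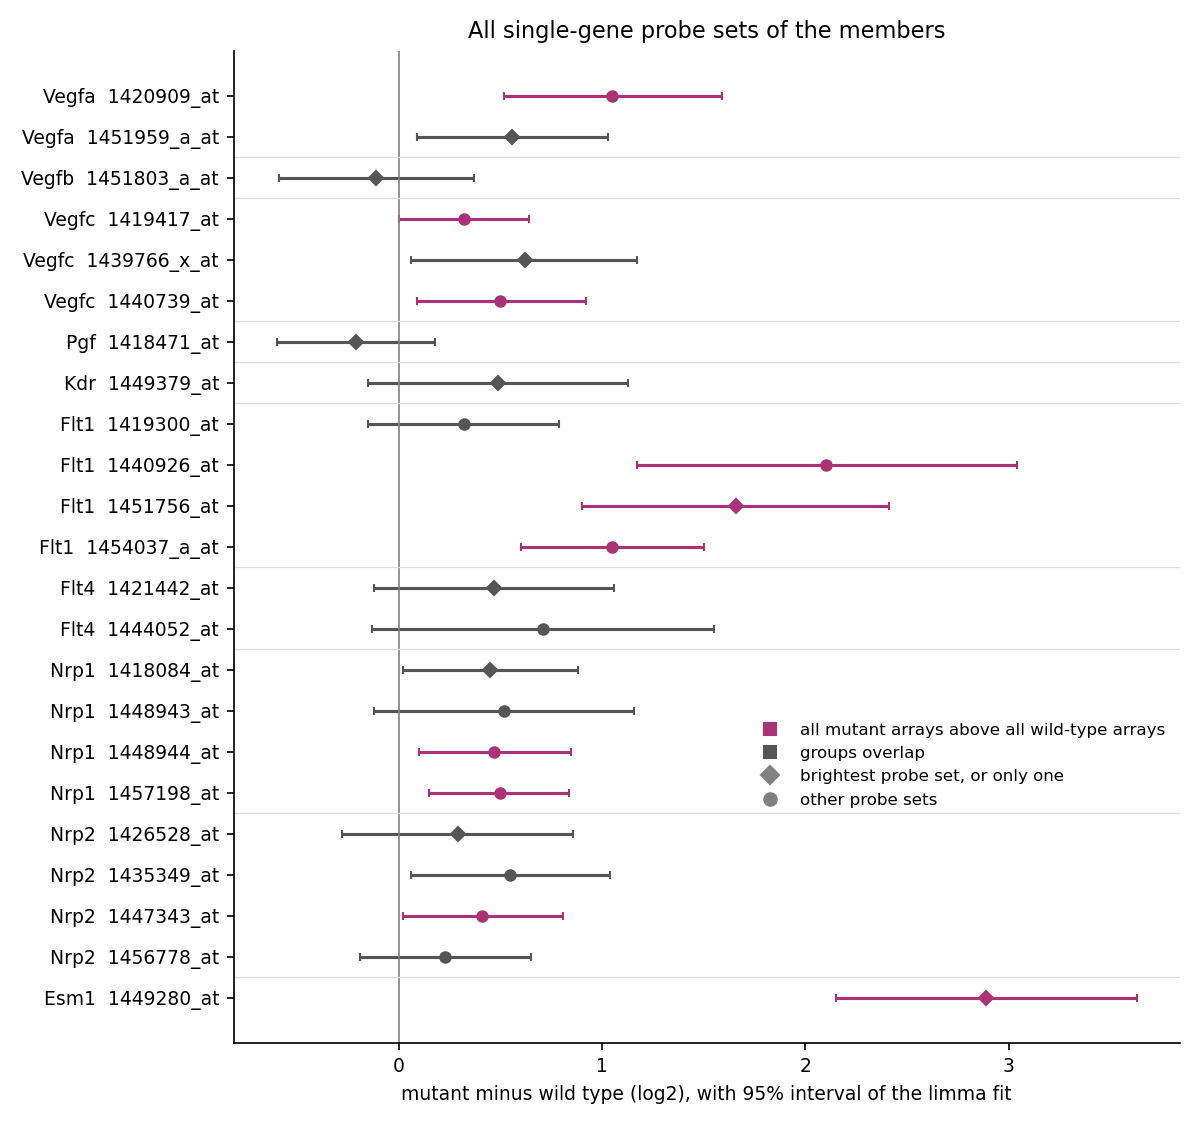
Difference between mutant and wild type (log2) for each of the 23 probe sets, with its 95% interval from limma's fit over all probe sets. Purple marks the 10 probe sets whose mutant arrays all lie above the wild-type arrays; the points for Vegfb and Pgf are the only ones below 0.

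Of the 3 receptor kinases, Flt1 had the largest difference. Its brightest probe set (1451756_at) read 7.63, 7.55 and 7.04 in wild type against 8.36, 9.62 and 9.22 in the mutant. Every mutant value was above every wild-type value, and mutant array 1 was again the lowest of its group. The difference was 1.66 (SE 0.32, 95% interval 0.90 to 2.41, adjusted p = 0.172). On this probe set it ran from 1.38 to 2.01 over the alternatives. The mean of all Flt1 probe sets gave 1.28 and the most variable of them 2.10. Flt1 passed in 1 alternative, without mutant replicate 1 (adjusted p = 0.0365).

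The 4 Flt1 probe sets did not give 1 answer. Probe set 1440926_at read 7.15, 7.28 and 6.36 against 8.17, 9.37 and 9.57, a difference of 2.10 (SE 0.40, adjusted p = 0.209 over all probe sets). Probe set 1454037_a_at read 7.82, 7.73 and 7.29 against 8.41, 8.72 and 8.85, a difference of 1.05 (SE 0.19, adjusted p = 0.192 over all probe sets). Probe set 1419300_at read 6.86, 7.27 and 6.74 against 7.23, 7.03 and 7.58, so that the groups overlapped and the difference was 0.32 (SE 0.20, adjusted p = 0.591 over all probe sets). Probe sets 1451756_at, 1440926_at and 1454037_a_at thus put every mutant array above every wild-type array, and 1419300_at did not. Which transcript forms each probe set reads is not given in the sources used here, so membrane-bound and soluble Flt1 could not be told apart.

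The disagreement was tested within arrays. The brightest Flt1 probe set minus 1419300_at was 0.77, 0.28 and 0.30 in wild type against 1.13, 2.59 and 1.64 in the mutant, so the gap between them was wider on every mutant array, by 1.34 on average. This gave p = 0.10 in an exact two-sided permutation test, the smallest that 3 against 3 arrays allow, and 0.32 after Benjamini-Hochberg adjustment over the 13 such pairs of probe sets in 6 members. Of the 13 pairs, 4 reached that smallest value, namely all 3 Flt1 pairs and the Vegfa pair. In the Vegfa pair the brightest probe set minus the other was 0.70, 0.57 and 0.55 in wild type against 0.21, −0.20 and 0.33 in mutant cells. With this test no pair can go below 0.10.

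**Figure D3:**
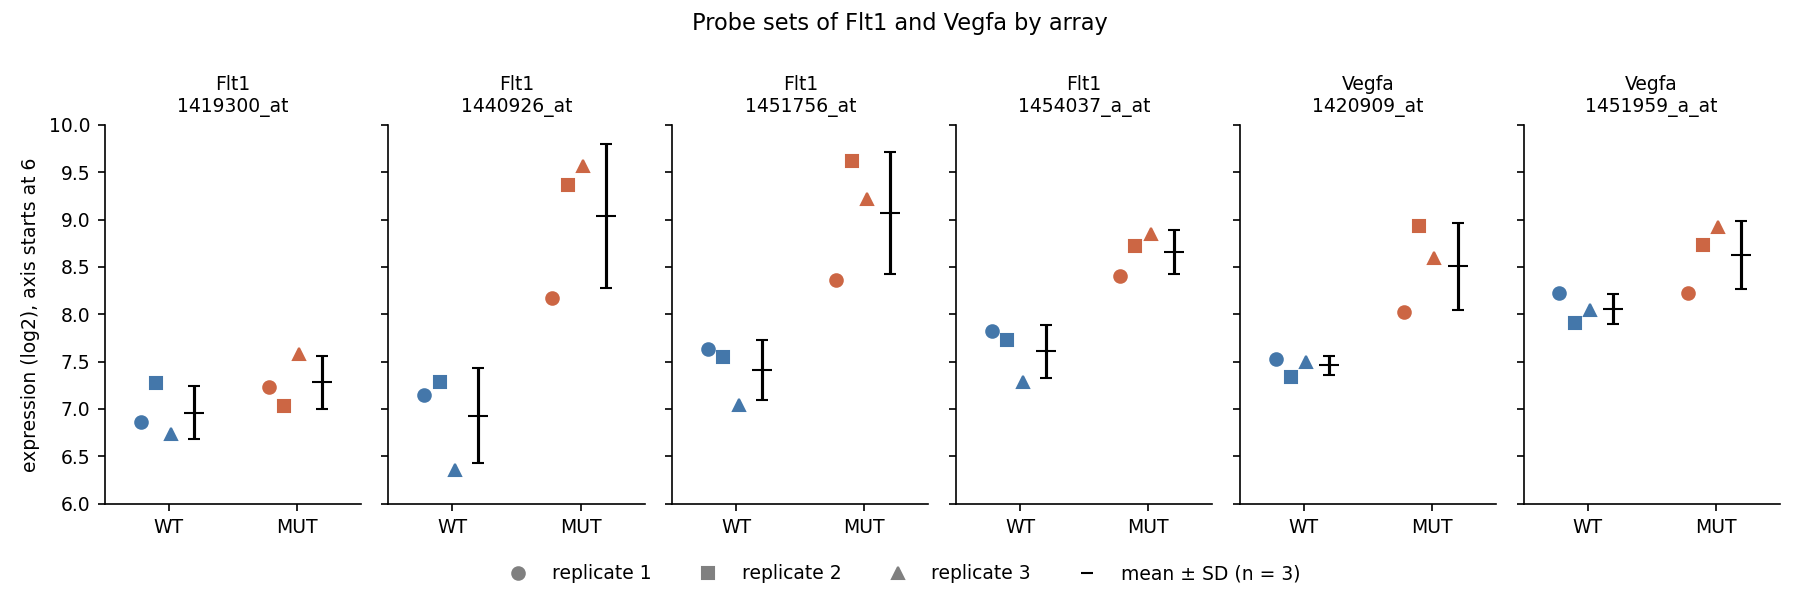
Expression (log2, axis from 6) by array for the 4 probe sets of Flt1 and the 2 of Vegfa, with mean and SD. The groups separate on all panels but Flt1 1419300_at and Vegfa 1451959_a_at, and mutant replicate 1 (circle) is the lowest mutant value on each of the others.

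Kdr, the main signalling receptor, has 1 probe set, which read 10.03, 9.34 and 9.16 against 9.69, 9.90 and 10.41. Wild-type array 1 lay above 2 of the mutant arrays. The difference was 0.49 (SE 0.27, 95% interval −0.15 to 1.13, adjusted p = 0.525), and it ran from 0.06 under the Y-linked covariate to 0.75 without wild-type replicate 1. Flt4 read 9.07, 8.96 and 8.49 against 8.88, 9.75 and 9.31 on its brightest probe set, with overlap, a difference of 0.47 (SE 0.25, adjusted p = 0.510). On that probe set Flt4 stood at 0.22 under the Y-linked covariate, 0.25 without mutant replicate 2 and at most 0.69. Its other probe set, at 7.45, 8.49 and 6.89 against 8.33, 8.33 and 8.30, gave 0.71 with a wide spread in wild type only, and 1.15 without wild-type replicate 2 or 0.35 when replicate 3 of that group was left out.

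Flt1 and Kdr were also set side by side within each array, a comparison chosen after their values were seen. Relative to the wild-type mean, Flt1 minus Kdr came to −0.30, 0.31 and −0.02 in wild type against 0.77, 1.82 and 0.91 in the mutant. Every mutant array was above every wild-type array, and the mean shift was 1.17 (exact permutation p = 0.10, the smallest possible; 0.17 adjusted over 5 such comparisons). These are unequal changes of 2 probe sets and not a ratio of receptor molecules. Flt1 was read here through its brightest probe set, and its probe set 1419300_at, at 0.32, did not exceed the 0.49 of Kdr.

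The neuropilins stood slightly higher in mutant cells and neither passed. Nrp1, a co-receptor for VEGFA and for class 3 semaphorins, read 8.81, 9.13 and 8.89 against 9.06, 9.62 and 9.49 on its brightest probe set. Only mutant array 1 fell within the wild-type range. The difference was 0.45 (SE 0.18, adjusted p = 0.405), and the other 3 probe sets gave 0.47, 0.50 and 0.52, so that all 4 Nrp1 probe sets had differences of like size. Nrp2, the co-receptor for VEGFC, read 10.36, 10.07 and 9.96 against 9.89, 10.72 and 10.66. Mutant array 1 was the lowest of all 6 arrays there and the other mutant arrays the highest. The difference was 0.29 (SE 0.24, adjusted p = 0.657), with 0.23 to 0.55 on the other 3 probe sets. The range over the alternatives was 0.33 to 0.61 for Nrp1 and 0.05, under the Y-linked covariate, to 0.56 for Nrp2.

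Other parts of the pathway were read from fixed gene lists, chosen with earlier results of these data known. Their counts at an unadjusted p under 0.05, and those of the cell type lists, stand beside 6.76% of all genes higher with such a p. Lower with such a p were 880 of all 18193 genes. Of 9 further ligands, co-receptors, plexins and semaphorins none passed (limma; 3 at an unadjusted p under 0.05, all higher), with a median of 0.14. Vegfd, the other ligand of FLT4, stood at 0.61 (SE 0.17), the heparan sulfate proteoglycan Sdc4 at 1.1 (SE 0.33) and the semaphorin receptor Plxnd1 at 0.57 (SE 0.23), each with no overlap between the groups. Of 38 measured genes of signal transduction below the receptors none passed (6 at an unadjusted p under 0.05, all higher), with a median of 0.07. The smallest p-values were those of the protein kinase C gene Prkcd, which stood at 0.79, and of the adaptor Shc1 and the kinase Map2k1, at 0.53 and 0.43. Of 15 genes that VEGF is known to induce none passed either (at an unadjusted p under 0.05, 2 higher and 1 lower), with a median of 0.15 and 8 above 0. In that list the matricellular gene Ccn2 stood at 0.96 (SE 0.18, adjusted p = 0.154) and the immediate early gene Egr1 at 0.78. Ptgs2 lay below background in both groups at −0.29, and Rcan1, a calcineurin inhibitor and a common readout of VEGF signalling, stood at −0.20.

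Tip cell genes, the class to which Esm1 belongs, were the pathway list with called members besides the low-oxygen genes. Of 18 measured, 3 rose over all genes, against 0.066% of all genes called higher, 0 fell and 15 did not pass. Values were above 0 for 16, with a median of 0.58. This list and the low-oxygen list were chosen with earlier results of these data known. Their counts beside the share of all genes are therefore a description and not independent evidence. Igfbp3, an insulin-like growth factor binding protein, rose by 1.61 (SE 0.15, adjusted p = 0.0371). Kcne3, a potassium channel subunit, rose by 3.46 (SE 0.33), with a wild-type mean of 4.74 under background and thus at least 8.96-fold. Adm, the vasodilator adrenomedullin, rose by 1.84 (SE 0.20, adjusted p = 0.0489) and is in the low-oxygen list too. Dll4, the Notch ligand of tip cells, stood at 0.01, Angpt2 at −0.50, Cxcr4 at 0.27 and Unc5b at 0.31, none of them passing. The count of 3 was 1 without wild-type replicate 1 or 3, 0 without wild-type replicate 2 or mutant replicate 2 or 3, and 4 without mutant replicate 1. It was also 2 after median centring and 1 under the Y-linked covariate or with the mean of all probe sets. With the most variable probe set, the replicate block or the threshold of 0.01 it was 0.

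In the angiopoietin and apelin pathway, 0 of 12 genes passed (limma; 4 at an unadjusted p under 0.05, all higher) and the median was 0.14. The peptide Apln, also a tip cell gene, read 4.82, 6.14 and 5.77 against 6.73, 6.86 and 7.52, a difference of 1.46 (SE 0.36, adjusted p = 0.231). Notch4 stood at 0.49 and the receptor Tie1 at 0.71, and its partner Tek at 0.05. Among 16 suppressors and modulators 0 passed (5 at an unadjusted p under 0.05, all higher). Epas1, the oxygen-regulated factor HIF2α of endothelium, read 7.92, 7.93 and 7.74 against 8.79, 9.19 and 9.49, a difference of 1.30 (SE 0.19, adjusted p = 0.103). The metalloproteinase inhibitor Timp3, which blocks VEGF binding to KDR, stood at 0.91 and the feedback inhibitor Spry1 at 0.49. Of the other oxygen pathway genes, Hif1a stood at −0.23, Arnt at −0.02 and Vhl at −0.01, none passing.

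Genes induced by low oxygen, among which Vegfa is usually counted though it was left out of the list, stood higher in the mutant cells too. Of 30 measured, 29 had higher values, with a median of 1.13. Called higher were 4 (Pfkp, Stc2, Adm and Ndrg1), against 0.066% of all genes, and 0 fell. Set against wild type, the list's average came to 0.03, −0.12 and 0.09 in wild type and 0.83, 1.5 and 1.44 in the mutant. On the same scale Vegfa was at 0.17, 0.67 and 0.86 and Flt1 at 0.95, 2.21 and 1.81 on mutant arrays 1, 2 and 3. The level of Esm1 there was 4.95, 6.11 and 5.55. In each of these mutant array 1 had the smallest of the mutant values. This was not particular to them. Mutant array 1 was also the lowest for the tip cell mean (0.62, 0.79 and 0.88) and the endothelial mean (0.32, 0.50 and 0.49). For the neural crest and mesenchyme mean it was not (0.49, 0.32 and 0.55). The part of low oxygen in the members' differences was not tested. The count of 4 was 0 without wild-type replicate 1 or 2 or mutant replicate 2 or 3, 1 without wild-type replicate 3, and 12 when mutant replicate 1 was left out. It was also 2 after quantile normalization and 1 after median centring or with the most variable probe set. Under the Y-linked covariate, the replicate block, the threshold of 0.01 or the mean of all probe sets it was 0. Without the dimmest 40% of genes, with the trended robust prior or with array weights it was 5.

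Endothelial markers were mixed, and more of them stood higher than lower. Of 24 endothelial and endocardial genes other than the members, 21 had higher values, 8 with no overlap, against 8.64% of all genes. None passed (limma; at an unadjusted p under 0.05, 10 higher and 1 lower), and the median was 0.19. Sox17, an arterial and endodermal factor, stood at 1.8, Sox18 at 1.14, Pecam1 at 1.14 and the junction cadherin Cdh5 at 0.60. Robo4, a guidance receptor of endothelium, stood at 1.09, with a wild-type mean below background and at least 1.6-fold more signal in the mutant. Other markers stood near 0, such as Tek at 0.05, Eng at 0.05, Plvap at 0.03 and Cldn5 at 0.08. Etv2, a factor that starts the endothelial lineage, stood at −0.75 with every mutant array lower, and the endocardial factor Nfatc1 at −0.42 with overlap, neither passing. Set against wild type, the average of these genes came to 0.03, 0.35 and −0.38 in wild type and 0.32, 0.50 and 0.49 in the mutant, so wild-type array 2 was above mutant array 1. Their summed signal (log2) ranged from 11.64 to 12.38 in wild type and from 12.35 to 12.53 in mutant cells. More endothelial cells and more RNA per endothelial cell cannot be told apart in such bulk samples.

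The receptors were therefore also read against the endothelial mean of the same array, after their values were seen. On this scale Flt1, through its brightest probe set, stood 1.22 higher in mutant cells, with no overlap between the groups. The exact permutation p was 0.10, the smallest possible, and 0.17 adjusted over the 5 comparisons. The other Flt1 probe sets were not set against this mean. One of them, 1419300_at, differed by 0.32, beside an endothelial mean at 0.32, 0.50 and 0.49 on mutant arrays 1, 2 and 3. Esm1, the last of the 5, is not given on this scale, since its wild-type values lie below background. Kdr and Flt4 stood at 0.05 and 0.04, with an exact permutation p of 1.0 for each. The Kdr values ran from −0.52 to 0.49 in wild type and from −0.14 to 0.41 in mutant cells, so all mutant values lay within the wild-type range. Lymphatic markers had a median of −0.03 over 5 genes, with Prox1 at −0.31 and Lyve1 at −0.03.

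**Figure D4:**
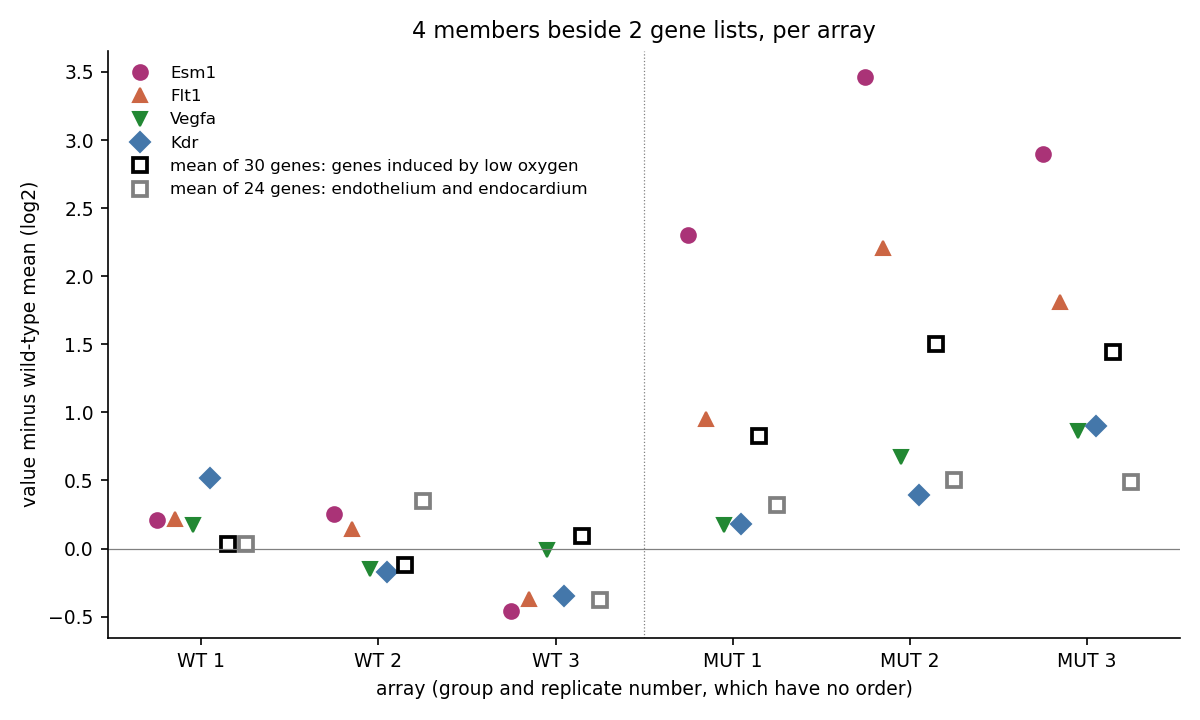
Values relative to the wild-type mean (log2) on each of the 6 arrays for Esm1, Flt1, Vegfa and Kdr, beside the means of 30 low-oxygen and 24 endothelial genes (open squares). The wild-type mean of Esm1 is below background, so the height of its points has no defined size; Esm1, Flt1 and the low-oxygen mean are higher on every mutant array, while Kdr and the endothelial mean overlap between the groups.

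Other cell types were checked by their markers. Heart progenitor genes had a median of −0.29 over 15, with 9 below 0 and none passing (limma; before adjustment 5 were lower with a p under 0.05 and 1 higher). Among them Tbx20 stood at −0.94, Osr1 at −1.05, Foxf1 at −1.47 and Foxc2 at 0.61. Their summed signal was 11.98 to 12.33 in wild type and 11.68 to 12.01 in mutant cells, and the part of this makeup in the members' differences was not tested. Trophoblast, a rich source of Pgf and soluble Flt1, had all 5 measured markers at or below background in both groups. Blood and macrophage genes (macrophages also carry FLT1) had a median of −0.33 over 14. Of the 14, 6 were lower on every mutant array, against 9.18% of all genes, and 3 were at or below background in both groups. Their summed signal was 10.33 to 10.49 in wild type and 10.26 to 10.42 in mutant cells. Neural crest and mesenchyme genes, a site of neuropilins, had a median of 0.44 over 11, with 9 above 0. Of the 11, 5 were higher with no overlap, against 8.64% of all genes. The 11 genes summed to 12.15 to 12.22 against 12.65 to 12.75. Their part in the neuropilin differences was not tested. Neuronal genes summed to 12.67 to 13.23 against 11.92 to 13.01 (median −0.52 over 11), and erythroid genes to 15.40 to 15.60 against 15.12 to 15.69 (median −0.21 over 9). Visceral endoderm genes, from a tissue that makes Vegfa, were uneven within groups, at 9.34, 12.50 and 12.14 in wild type and 9.24, 10.65 and 11.32 in mutant cells (median −0.25 over 9). Their part in the Vegfa difference was not tested. Foregut endoderm genes had a median of −0.15 over 7 and summed to 11.07 to 11.48 against 11.33 to 11.93.

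The genes with the most similar pattern were found among 14346 genes above background in at least 1 group, by the root mean square difference between profiles taken relative to the wild-type mean over the 6 arrays. This is a description of likeness and carries no test. None are given for Esm1, whose profile would be taken from a wild-type mean below background. For Flt1 they were Stc1 at 0.16, the caveolar protein Cav1 at 0.19, the glutamate receptor subunit Gria2 at 0.21, the BMP and Wnt antagonist Sostdc1 at 0.25 and Sfmbt2 at 0.26. Cav1 stood at 1.81 and Stc1 at 1.72, beside 1.66 for Flt1. For Vegfa they were Lpp, Carf, Pold4, Calcoco1 and Cep170b, at 0.04 to 0.06.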

How the data were processed

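Values for 45101 probe sets on 6 Affymetrix arrays were used as the authors deposited them, as log2 levels. That base was read from the values, which run from 1.89 to 15.07. The background, summary and normalization steps were not stated in the sources used here. Array medians lay between 6.47 and 6.50 and sorted values differed little (SD at most 0.07 at any rank), as after alignment of the arrays, by which a shift of most genes would be removed. Per the labels' protocols, Trizol RNA was amplified with WT-Ovation Pico before labelling, a step that can distort levels.

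Gene names came from the platform annotation held by GEO, and RefSeq gave current symbols by identifier (34741 of 34945 single-gene probe sets matched). The 64 controls were left out, and the 932 probe sets naming several genes and 9160 unnamed ones entered only the fit per probe set. In the fit per gene the probe set with the highest mean stood for the gene. Mutant and wild-type arrays were compared with limma 3.58.1 in R 4.3.3 (two-sided; no covariate; degrees of freedom 4 residual, 3.45 prior). Benjamini-Hochberg adjustment ran over all genes or all probe sets, with a threshold of 0.05. SE are moderated. Adjusted p-values are per gene unless said to be over all probe sets. The background level, 4.85, is the 95th percentile of 27 bacterial control probe sets. In simulations with 200 changed features the fit per gene recovered 98.9% of changes of 2 and 74.8% of changes of 1. The fit per probe set recovered 97.4% and 53.6%. False calls averaged 11.35 per gene-level simulation and 8.2 per probe-set one. They came beside the recovered changes, and the simulated noise was normal and independent between features. These averages are thus not a count of false calls in the deposited data. In the deposited data 12 genes were called higher. Of the low-oxygen genes, Pfkp (2.65), Stc2 (2.63) and Ndrg1 (3.46) were called. Bhlhe40 (2.7, adjusted p = 0.0523, limma) and Ddit4 (2.05, 0.12) were not. The simulated rates thus do not show that uncalled members are unchanged. Precision is limited by how few arrays there were.

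Every member is named. Of each pathway list the 3 genes with the smallest p and every called gene were named by rule. Other list genes were picked once values were known. The rule's nearest genes of Esm1 are left out, as its wild-type mean lies below background. Members, lists and alternatives were chosen with earlier results of these data known. The alternatives were a replicate block, quantile normalization, median centring, a filter on dim features, other choices of probe set, another prior, array weights, a Y-linked covariate, leaving out each array, and a stricter threshold of 0.01. Counts of called tip cell and low-oxygen genes under them were added after seeing the data.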

Additional observations from a re-analysis of the deposited data

How the results depend on the processing

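Of the 10 member genes, Esm1 alone was called, and no member changed sign under any alternative except Vegfb. The Vegfb difference was 0.02 with the Y-linked covariate and ran from −0.30 to 0.02 on leaving out 1 array, at 0.02 when wild-type replicate 2 was left out and 0.00 when mutant replicate 2 was, per gene and per probe set alike. The count of called members was 0 with the replicate block, median centring, the Y-linked covariate, the threshold of 0.01, the most variable probe set or the mean of all probe sets. It was also 0 without the dimmest 40% of genes, a filter that leaves Esm1 out, and 0 to 2 on leaving out 1 array. Same-numbered arrays did not deviate together from their group means (correlations 0.11, −0.08 and −0.02 over genes), and under the replicate block Esm1 had an adjusted p of 0.0866. Esm1 missed narrowly with median centring (0.0507) and the mean of all probe sets (0.0511). Over all genes the 12 called higher became 0 with the replicate block or the threshold of 0.01, 6 with median centring, 1 with the Y-linked covariate, the most variable probe set or the mean of all probe sets, and 0 to 81 on leaving out 1 array. The 0 called lower became 0 to 11 on leaving out 1 array.

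Over all probe sets, the 0 called higher became 10 without the dimmest 40%, 14 with the trended robust prior, 9 with array weights, 8 with single-gene probe sets only and 0 to 50 on leaving out 1 array. The 0 called lower became 1 with the trended robust prior or array weights and 0 to 6 on leaving out 1 array. The 0 member probe sets called became 1, that of Esm1, with the trended robust prior and 0 to 1 on leaving out 1 array. Signal over background limits Esm1 and 1 Vegfc probe set, whose wild-type means lie below it.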
